A study of Mus musculus with 20 samples.

Results

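The 10 genes described here belong to the cardiac Z-disc and the desmin network, and they were followed through 20 mouse heart libraries. They were the rows of the deposited table of 26440 genes whose symbol is Pdlim3, Pdlim5, Ldb3, Myoz2, Tcap, Actn2, Nebl, Synpo2l, Des or Cryab, each present as 1 row; they are picked by symbol, with no threshold on a measured value, but the list was drawn up with earlier results of these data known. All mice were C57BL/6N. The knockout mice carried the genotype label MyHC-Creld1 KO, a myocardial deletion of Creld1 with Cre driven, by its name, from a cardiac myosin heavy chain (MyHC) promoter, and the others were labelled wild-type; whether the wild-type animals carried Cre, and which exons were deleted, is not given in the sources used here. Hearts were taken whole at embryonic stage E13.5 from 4 knockout and 4 wild-type embryos of 3 litters, and atria and ventricles were taken separately at postnatal day 3 (P3) from 3 knockout and 3 wild-type pups of 3 litters. Each library came from 1 animal, and p-values measure the spread between these animals. The study asked how myocardial loss of Creld1, a gene for an endoplasmic reticulum and cell surface protein with EGF-like domains that is linked to atrioventricular septation, changes the heart's transcripts.

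The Z-disc anchors the thin filaments of neighbouring sarcomeres. Actn2 (alpha-actinin 2) cross-links those filaments there, and a family of adaptor proteins docks on it: Pdlim3 (ALP), Pdlim5 (ENH) and Ldb3 (Cypher or ZASP) share a PDZ domain and LIM domains, Myoz2 (calsarcin-1) ties alpha-actinin to calcineurin, and Synpo2l (CHAP) also binds alpha-actinin. Tcap (telethonin) caps the end of titin, and Nebl encodes nebulette, a nebulin relative that lies along cardiac thin filaments near the Z-disc. Desmin, the product of Des, is the muscle intermediate filament that links Z-discs to one another and to the membrane, and Cryab encodes alphaB-crystallin, a small heat shock protein that acts as a chaperone of desmin. In humans, variants of LDB3, TCAP, ACTN2, DES and CRYAB are known in inherited muscle and heart muscle disease.

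The promoter windows of 3 members are printed because the results below turn on these genes: Pdlim3 had the largest knockout difference, and Myoz2 and Ldb3 had stage differences in ventricles that were called with each library left out in turn. Each window runs from 250 bases before to 50 bases after the start of transcription in RefSeq (GRCm38.p6), 5′ to 3′ on the gene's strand. Capitals mark every match, on either strand, to the MEF2 box, the CArG box (bound by serum response factor), the GATA core GATAA and the TEAD core CATTCC.
Pdlim3, chr8:45885237-45885536, plus strand: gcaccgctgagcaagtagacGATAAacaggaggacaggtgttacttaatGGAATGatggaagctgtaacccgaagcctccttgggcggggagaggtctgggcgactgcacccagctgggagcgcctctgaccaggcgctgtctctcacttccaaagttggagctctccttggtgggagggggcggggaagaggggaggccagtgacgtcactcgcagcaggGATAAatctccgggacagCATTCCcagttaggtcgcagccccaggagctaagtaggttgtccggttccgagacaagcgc
Myoz2, chr3:123034938-123035237, minus strand: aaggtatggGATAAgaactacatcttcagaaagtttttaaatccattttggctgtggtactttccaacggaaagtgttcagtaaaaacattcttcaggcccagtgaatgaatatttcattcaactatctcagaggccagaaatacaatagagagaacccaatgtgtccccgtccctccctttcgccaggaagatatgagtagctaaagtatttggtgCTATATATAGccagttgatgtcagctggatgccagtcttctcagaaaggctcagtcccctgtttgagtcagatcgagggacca
Ldb3, the first of its listed starts, chr14:34588632-34588931, minus strand: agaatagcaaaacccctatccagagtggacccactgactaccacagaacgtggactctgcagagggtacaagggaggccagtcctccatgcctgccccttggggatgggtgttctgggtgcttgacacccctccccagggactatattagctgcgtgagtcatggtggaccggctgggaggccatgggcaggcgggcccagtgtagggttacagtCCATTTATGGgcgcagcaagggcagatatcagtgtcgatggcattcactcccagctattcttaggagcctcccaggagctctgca
The Pdlim3 window held 2 matches to GATAA and 2 to CATTCC and no MEF2 or CArG box. The Myoz2 window held 1 MEF2 box, beginning 33 bases before the start, and 1 match to GATAA. The Ldb3 window held 1 CArG box, beginning 35 bases before the start. Among 32851 promoter windows of the same length, 3.19% held a MEF2 box, 1.63% a CArG box, 25.4% GATAA and 14.7% CATTCC. Of the 10 members, 8 had an entry. Both listed Synpo2l windows also held a MEF2 box, and 1 of 4 Nebl windows held a CArG box. The E-box CANNTG was searched as well and was in 72.3% of all windows. A match is a description of these letters and shows neither binding nor function.

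Values are the deposited normalized signal, on a linear scale that is treated here as comparable between libraries for 1 gene. The summed signal of all genes was 12310900 to 14084300 in P3 ventricles and 8495270 to 9813940 in E13.5 hearts. The estimated depth was 5138353 to 20669358 counts per library, and the lowest member value was a signal of 141 (Tcap) and the fewest estimated reads were 74.7 (Des). Creld1 had a signal of 70.9, 7.48, 38.4 and 4.64 in knockout E13.5 hearts, against 66.0, 92.2, 60.8 and 34.0 in wild-type E13.5 hearts. It was at 23.1, 26.6 and 82.4 in knockout atria, against 105, 21.6 and 146 in wild-type atria, and at 19.9, 59.3 and 51.9 in knockout ventricles, against 62.2, 59.7 and 130 in wild-type ventricles. The knockout library was not below its litter partner in the first E13.5 pair and the second atrial pair. In the second ventricle pair the 2 were nearly equal, at 59.3 in knockout and 59.7 in wild-type. Genotypes are therefore given as labelled. The atrial libraries of replicate 3, knockout and wild-type, stood apart from the other 4 atrial libraries: 26.1% of 18125 genes tested were higher in both than in all 4 others and 19.2% lower. The libraries labelled as the atria and ventricles of wild-type pup 2 disagreed in Xist (74.9 in ventricles, 2876 in atria) and in the sum of 4 Y-linked genes (3223 in ventricles, 33.5 in atria), which goes against their labels as tissues of 1 pup. That atrial library also held Myl2, a ventricular myosin light chain, at 9242, against 21.7 to 97.2 in the other 5 atrial libraries. In bulk tissue, fewer cells of a type and less RNA per cell cannot be told apart.

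Per kilobase of the longest protein-coding transcript (GENCODE M21, mm10), Cryab was the most abundant member in all 6 groups and Des the least abundant in 5 of them. In knockout P3 ventricles Cryab reached 4831 ± 1018 signal per kilobase, and in wild-type P3 ventricles 4473 ± 618 (SD, n = 3 each). Des stood at 147 ± 45.9 per kilobase in knockout P3 ventricles and at 113 ± 38.2 in wild-type P3 ventricles. Myoz2 came next after Cryab in ventricles, at 2241 ± 138 and 1841 ± 163 per kilobase in knockout and wild-type. Ldb3, Actn2, Pdlim5, Tcap and Nebl lay between 760 and 1286 per kilobase of mean signal in P3 ventricles of either genotype, and several of these neighbours did not differ beyond their spread. Synpo2l was lower, at 499.5 ± 54.9 per kilobase in knockout and 379 ± 72.3 in wild-type ventricles. Pdlim3 changed place with tissue: it was the second most abundant member in knockout atria, at 1548 ± 805 per kilobase, and the ninth in wild-type ventricles, at 278 ± 83.2. Cryab shares 252 of its 1479 exon bases with Hspb2 on the opposite strand, and Des shares 220 of its 3754 exon bases with the antisense gene Gm15179. The libraries do not mark strand, so reads from those stretches cannot be told apart. Nebl counts cannot tell nebulette from the shorter LIM-nebulette that the same gene encodes.

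**Figure D1:**
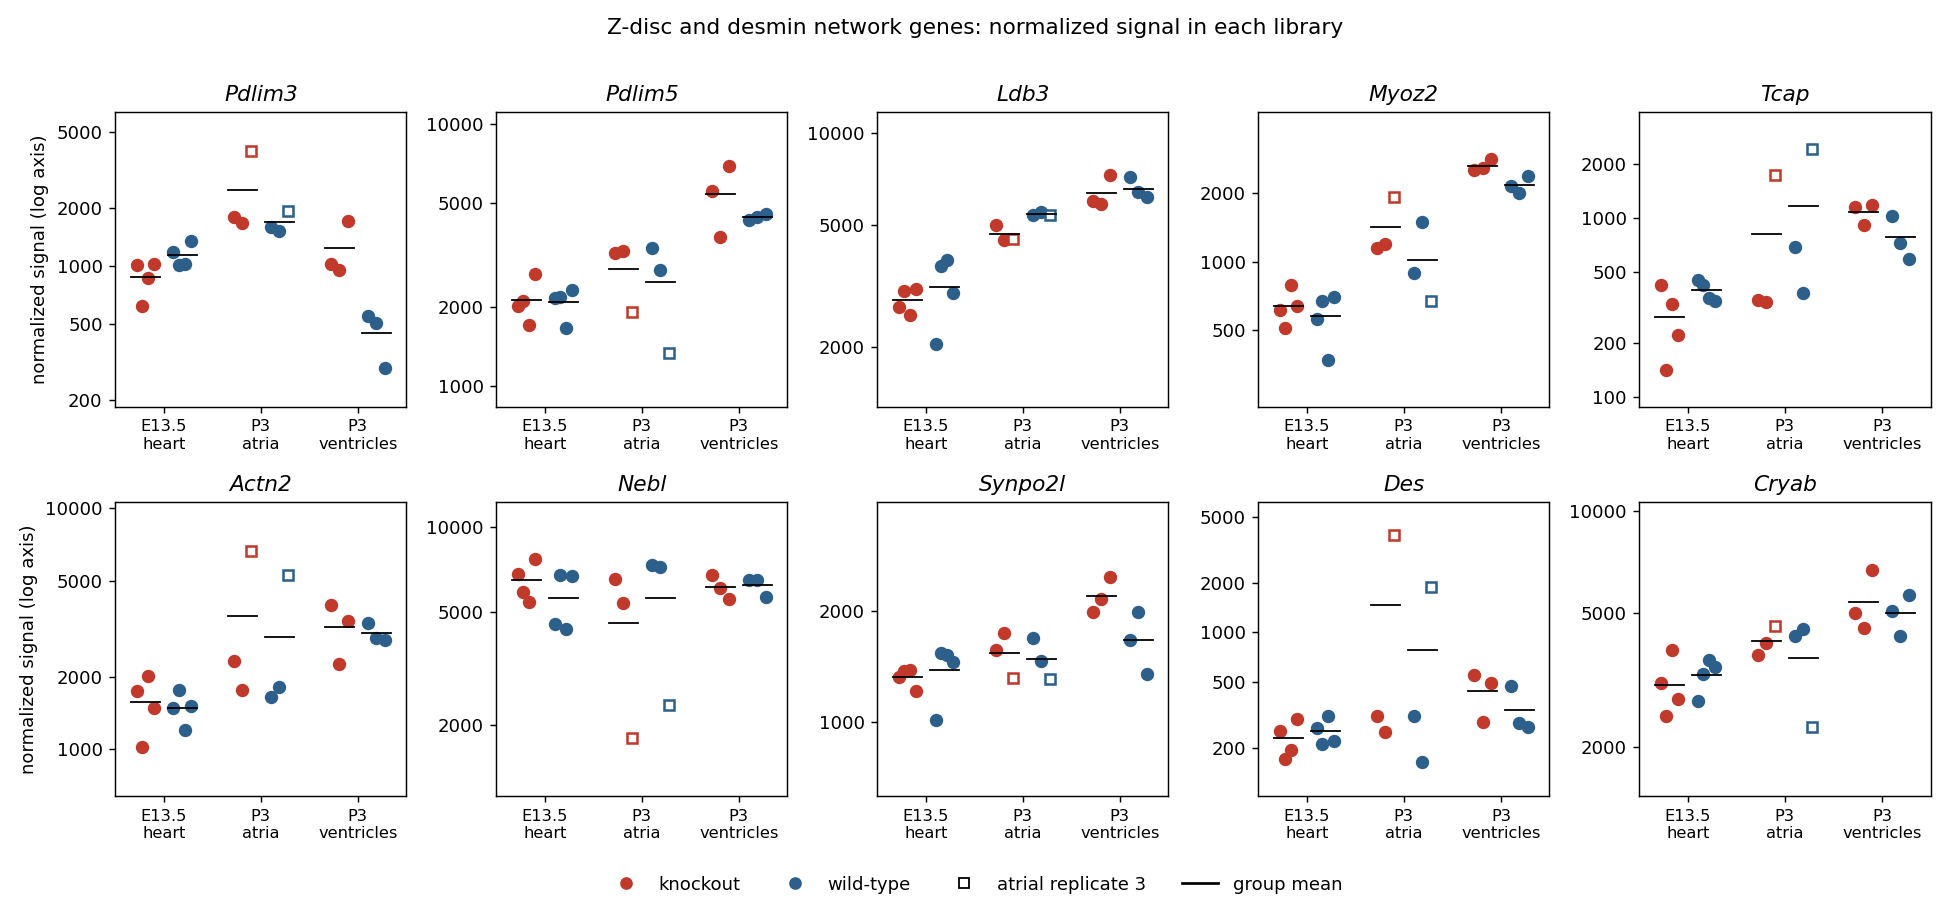
Normalized signal (log axis) of the 10 genes in each library, with knockout (red) left of wild-type (blue) in E13.5 hearts, P3 atria and P3 ventricles; bars are group means and open squares are the atrial libraries of replicate 3. Pdlim3 is the gene whose knockout and wild-type ventricles are farthest apart. The open squares lie above the other atrial libraries for Des, Tcap, Actn2 and Pdlim3, and below them for Nebl, Pdlim5 and Synpo2l. For Myoz2 and Cryab the knockout square lies above them and the wild-type square below.

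The first comparison was of knockout with wild-type. No member was called at any stage or tissue by limma at an adjusted p under 0.05. In P3 ventricles Pdlim3 showed the largest difference of the 10, and it alone had an unadjusted p under 0.05. Over all genes tested, limma called 0.0% in E13.5 hearts, 0.0276% (5 genes) in P3 atria and 0.0% in P3 ventricles. At an unadjusted p under 0.05 there were 0 members in E13.5 hearts (4.12% of all genes, 747), 0 in atria (5.32%) and 1 in ventricles (3.9%, 707). The median log2 difference of the 10 members was -0.08 in E13.5 hearts, 0.23 in atria and 0.26 in ventricles, beside 0.01, 0.00 and -0.01 over all genes. Those medians come from the same litters and tissues and carry no test.

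Pdlim3 (8:45885461-45919548, plus strand) had a signal of 1030, 953 and 1726 in knockout P3 ventricles, against 544, 501 and 294 in wild-type P3 ventricles. All 3 knockout ventricles were above all 3 wild-type ventricles, and the knockout library was higher in 3 of 3 litter pairs. The means were 1236 ± 426 and 447 ± 133 (SD, n = 3 each), a ratio of 2.76 and a log2 difference of 1.46 (SE 0.34, interval 0.77 to 2.16). The unadjusted p was 2.78e-04 in limma and the adjusted p 0.379. With the replicate block the adjusted p was 0.189, and without the third knockout ventricle the difference was 1.20 and without the third wild-type ventricle 1.19 (adjusted p 1.0 for both). In P3 atria Pdlim3 stood at 1802, 1675 and 3972 in knockout, against 1592, 1526 and 1942 in wild-type. The groups overlapped there, knockout was higher in 3 of 3 pairs, and the log2 difference was 0.45 (interval -0.25 to 1.15) with an adjusted p of 1.0 in limma. Without the atrial pair of replicate 3 the difference was 0.16. In E13.5 hearts Pdlim3 had 1009, 619, 866 and 1022 in knockout, against 1177, 1013, 1026 and 1355 in wild-type. There the knockout hearts were below the wild-type hearts within each of the 3 litters, with overlapping groups, a log2 difference of -0.40 (interval -0.9996 to 0.21) and an adjusted p of 1.0 in limma.

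The Pdlim3 estimate was thus negative in embryonic hearts and positive in P3 tissues, with intervals that include 0 except in ventricles. The difference between the knockout effects of P3 ventricles and E13.5 hearts was 1.86 (SE 0.44, interval 0.94 to 2.78), with an unadjusted p of 4.20e-04 and an adjusted p of 0.795 in limma. Over all genes that test called 0.0%, and 4.02% of genes had an unadjusted p under 0.05. Between ventricles and atria the Pdlim3 effects differed by 1.02 (interval -0.04 to 2.07; adjusted p 1.0 in limma, 0.0% of genes called). Between atria and E13.5 hearts the interval of the difference was -0.08 to 1.77, with 0 members called and 0.00552% of all genes (1 gene).

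The summed signal of smooth muscle markers, most of it from Acta2, was higher in all knockout than in all wild-type ventricles, while the atrial marker sums of the genotypes overlapped. Of all genes, 4.97% had knockout ventricles wholly above wild-type ventricles. The summed signal of 7 smooth muscle markers was 4624, 2714 and 4823 in knockout ventricles, against 2470, 2438 and 2406 in wild-type ventricles, and 6 of the 7 had a positive difference, with 0 called. Of these, Cnn1 (calponin) was at 50.5, 29.4 and 149 in knockout ventricles and 4.55, 4.32 and 2.11 in wild-type ventricles. Myh11, the smooth muscle myosin, was at 189, 125 and 68.8 in knockout ventricles and 69.6, 78.8 and 133 in wild-type ventricles, so those groups overlapped. Acta2, smooth muscle actin, was at 3599, 1951 and 3989 in knockout ventricles and 1759, 1825 and 1723 in wild-type ventricles. The 7 atrial markers summed to 13593, 5752 and 33452 in knockout ventricles, against 2601, 2030 and 7765 in wild-type ventricles, 4 of 7 with a positive difference and 0 called. Nppa, the natriuretic peptide gene, was at 11104, 2713 and 31208 in knockout ventricles and 971, 645 and 5411 in wild-type ventricles. Sln, an atrial regulator of the calcium pump, was at 249, 305 and 156 in knockout ventricles and 267, 171 and 302 in wild-type ventricles. The part of these markers in the Pdlim3 difference was not tested. With the mean log2 signal of 10 cardiomyocyte markers subtracted in each library, a quantity chosen after the data had been seen, the Pdlim3 difference in ventricles was 1.56 (adjusted p 0.355 in limma), and 0.0% of genes were called higher.

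**Figure D2:**
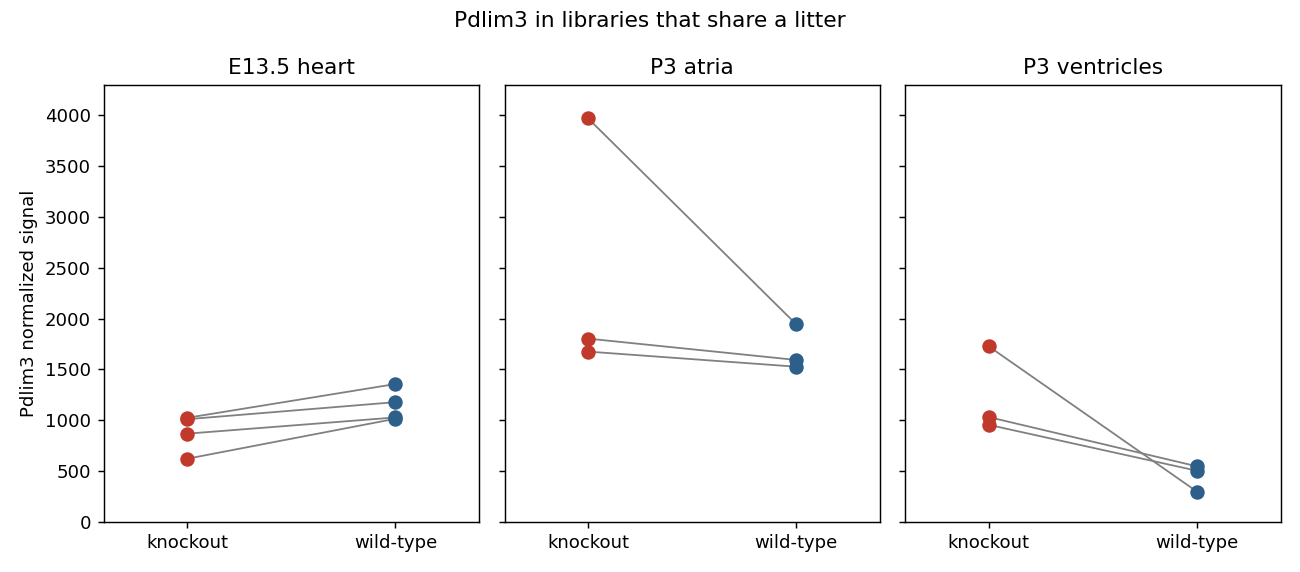
Pdlim3 normalized signal (linear axis) in knockout (left) and wild-type (right) libraries with the same replicate number and litter, joined by a line, in E13.5 hearts (4 pairs), P3 atria (3 pairs) and P3 ventricles (3 pairs). Embryonic pairs 2 and 3 share 1 litter. The lines run upward to wild-type in all 4 embryonic pairs and downward to wild-type in all P3 pairs.

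The other members of the alpha-actinin adaptor family differed less. Myoz2 (3:123006206-123035015, minus strand) had 2535, 2570 and 2834 in knockout P3 ventricles, against 2147, 1996 and 2379 in wild-type P3 ventricles. The knockout ventricles were all above the wild-type ones, with a log2 difference of 0.29 (interval -0.35 to 0.92) and an adjusted p of 1.0 in limma. In ventricles 2 members, Pdlim3 and Myoz2, had groups that did not overlap, with 10.5% of all genes doing so. Ldb3 (14:34526603-34588682, minus strand) was at 5024, 4470 and 4503 in knockout atria, against 5420, 5510 and 5407 in wild-type atria. All knockout atria were below all wild-type atria, by -0.23 on the log2 scale (interval -0.73 to 0.28; adjusted p 1.0 in limma). It was the 1 member whose atrial groups did not overlap, beside 7.91% of all genes, and in E13.5 hearts 0 members had groups that did not overlap, beside 2.54%. Ldb3 in ventricles differed by -0.05 (interval -0.55 to 0.45).

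Synpo2l was at 1981, 2148 and 2456 in knockout P3 ventricles, against 1667, 1981 and 1347 in wild-type P3 ventricles, higher in 3 of 3 pairs. Its log2 difference of 0.41 (interval -0.08 to 0.90) had an adjusted p of 1.0 in limma. Pdlim5 differed by 0.24 in ventricles (interval -0.43 to 0.91), by 0.23 in atria and by 0.02 in E13.5 hearts. Nebl differed by -0.02 in ventricles (interval -0.90 to 0.86), by -0.32 in atria and by 0.23 in E13.5 hearts. The intervals of both genes include 0 in all 3 tissues.

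Of the thin filament and titin anchors, Actn2 (13:12269426-12340760, minus strand) differed by 0.05 in ventricles (interval -0.85 to 0.96), 0.26 in atria and 0.04 in E13.5 hearts. Tcap, the titin cap, was at 421, 141, 331 and 221 in knockout E13.5 hearts, against 449, 424, 358 and 345 in wild-type E13.5 hearts. Knockout hearts were below wild-type hearts within each of the 3 embryonic litters, with overlapping groups and a log2 difference of -0.61 (interval -1.66 to 0.45; adjusted p 1.0 in limma). In ventricles Tcap was at 1147, 909 and 1190 in knockout and at 1022, 729 and 590 in wild-type, higher in 3 of 3 pairs, with a log2 difference of 0.50 (interval -0.72 to 1.72). Neither interval excludes 0.

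In the desmin network, Des (1:75360329-75368579, plus strand) was at 553, 289 and 496 in knockout P3 ventricles, against 476, 285 and 267 in wild-type P3 ventricles. The groups overlapped and the log2 difference was 0.37 (interval -1.26 to 2.01; adjusted p 1.0 in limma). Cryab (9:50751325-50756636, plus strand) was at 4996, 4514 and 6679 in knockout ventricles, against 5063, 4275 and 5651 in wild-type ventricles, a log2 difference of 0.10 (interval -0.47 to 0.67). Its neighbour Hspb2, a small heat shock gene read from the other strand, was at 267, 243 and 251 in knockout ventricles and 281, 262 and 218 in wild-type ventricles. Cryab was thus among the members with the narrower intervals, and Des had the widest. The fit shares the spread of a gene over all 6 groups, so the ventricle interval of Des also carries its spread in atria. Des was at 3844 and 1867 in the atrial libraries of replicate 3, against 165 to 314 in the other atria. Its SE was 0.78 in ventricles and in atria alike.

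**Figure D3:**
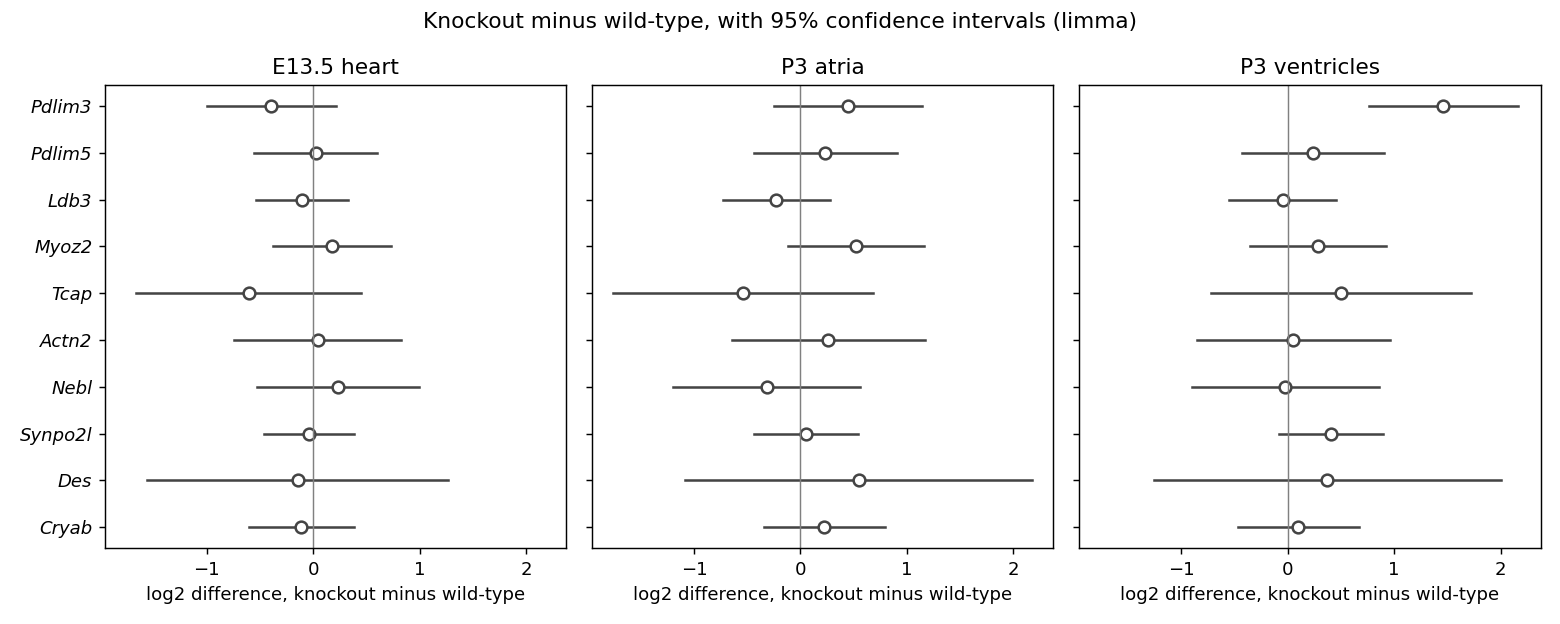
Log2 difference of knockout minus wild-type for the 10 genes in E13.5 hearts, P3 atria and P3 ventricles; points are limma estimates, lines are 95% confidence intervals, and open points have an adjusted p of 0.05 or more. All 30 points are open, and the interval of Pdlim3 in ventricles, 0.77 to 2.16, is the one that does not reach 0.

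No gene of the 3 further lists was called between genotypes. Among 37 tested genes of other Z-disc proteins the median log2 difference was 0.00 in E13.5 hearts, 0.11 in atria and 0.17 in ventricles. Among 23 genes of intermediate filaments and costameres, the complexes that fix Z-discs to the membrane, the medians were 0.13, 0.06 and 0.21. Among 6 small heat shock genes they were 0.01, -0.11 and 0.21.

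The second comparison was of ventricles with atria of the same pups, as labelled. Pdlim3 was at 1030, 953 and 1726 in knockout ventricles, against 1802, 1675 and 3972 in knockout atria, and at 544, 501 and 294 in wild-type ventricles, against 1592, 1526 and 1942 in wild-type atria. It was lower in the ventricles of 3 of 3 knockout and 3 of 3 wild-type pups, and only the knockout ranges overlapped. The log2 difference was -0.94 in knockout pups (interval -1.69 to -0.19; adjusted p 0.421) and -1.96 in wild-type pups (interval -2.70 to -1.21; adjusted p 0.0806), both in limma within pups. In the fit of the 6 groups without pairing by pup, the wild-type adjusted p was 0.00329. Without wild-type pup 2, whose libraries disagree in the sex-linked genes, the wild-type difference was -2.13, and without the atrial pair of replicate 3 it was -1.58. Within pups 0 of 10 members were called in knockout, beside 0.199% of all genes (36), and 0 of 10 in wild-type, beside 0.0883% (16); at an unadjusted p under 0.05 there were 2 members in each, beside 9.28% and 9.87% of all genes.

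Myoz2 ran the other way. It was at 2535, 2570 and 2834 in knockout ventricles, against 1154, 1203 and 1927 in knockout atria, and at 2147, 1996 and 2379 in wild-type ventricles, against 891, 1502 and 673 in wild-type atria. Its ventricles lay above its atria in all 6 pups as labelled, without overlap. The difference was 0.93 in knockout (interval 0.14 to 1.71, adjusted p 0.460) and 1.17 in wild-type (interval 0.38 to 1.95, adjusted p 0.313) in limma. The wild-type pairs include pup 2, whose libraries disagree in the sex-linked genes. With 1 pup left out in turn the wild-type difference ran from 0.84 to 1.54. Pdlim5 and Ldb3 also had ventricles above atria without overlap in both genotypes, and Synpo2l did so in knockout pups. Ventricles lay wholly above atria for 4 members in knockout and 3 in wild-type, beside 8.08% and 7.8% of all genes, and wholly below for 0 and 1 (Pdlim3), beside 8.79% and 8.2%. The summed signal of the 10 cardiomyocyte markers was 269117 to 320470 in knockout ventricles, against 192992 to 205625 in knockout atria, and 281878 to 328704 in wild-type ventricles, against 121822 to 196804 in wild-type atria. Relative to the mean log2 signal of those markers, Pdlim3 differed by -1.70 between ventricles and atria in knockout pups (adjusted p 0.0639 in limma) and by -2.85 in wild-type pups (adjusted p 0.0137). It was the 1 member called lower in wild-type, where 1.63% of all genes were called lower on that scale. The median difference of all genes on that scale was -0.76 in knockout and -0.88 in wild-type pups, so most genes were lower there. Single cardiomyocyte markers differed between chambers by 0.01 to 3.68 in knockout and 0.18 to 3.26 in wild-type pups.

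Des, Tcap and Actn2 were highest in the atrial pair of replicate 3. Des was at 311, 253 and 3844 in knockout atria and 314, 165 and 1867 in wild-type atria. Tcap was at 350, 338 and 1746 in knockout atria and 688, 378 and 2444 in wild-type atria. Actn2 was at 2331, 1760.5 and 6651 in knockout atria and 1656, 1820 and 5257 in wild-type atria. In each of these genes the third library of both genotypes was above all 4 others. The mean of that pair over the mean of the 4 others was 10.9 for Des, 4.78 for Tcap, 3.15 for Actn2 and 1.79 for Pdlim3.

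Nebl moved oppositely in that pair. It was at 6570, 5412 and 1798 in knockout atria and 7324, 7223 and 2344 in wild-type atria, and Pdlim5 and Synpo2l were also below the 4 others, with ratios of 0.312 for Nebl, 0.515 for Pdlim5 and 0.813 for Synpo2l. Of the members, 4 were thus above and 3 below the others in both libraries, beside 26.1% and 19.2% of all genes. Ldb3 lay within the range of the others. For Myoz2 and Cryab the knockout library of the pair was above that range and the wild-type library below it. Beside these values, the summed signal of all genes was 6601100 and 5777190 in the knockout and wild-type library of the pair, with 23457 and 22819 genes above 0. The other 4 atria had summed signals of 9546490 to 11368500, with 18357 to 21409 genes above 0. The 7 smooth muscle markers summed to 11474 and 6259 there, against 1161 to 5095 in the other atria, with 3 of 7 above all others. The 7 atrial markers summed to 449355 and 170568, against 79224 to 158318, also with 3 of 7 above, beside 26.1% of all genes. The 10 cardiomyocyte markers summed to 192992 and 121822, against 192731 to 205625, with 2 above and 3 below. Of 7 endothelial markers 3 were above, and of 8 fibroblast markers 2 were above and 2 below. The 6 macrophage markers summed to 844 and 917, against 166 to 243, with 4 of 6 above. The 12 skeletal muscle markers summed to 4848 and 2822, against 995 to 1610, with 2 of 12 above all others. The part of these differences in the members' values was not tested.

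The members' covariation within groups moved with that pair. Over 20 libraries, after subtracting group means, the 45 pairs of members had a median r of 0.03, from -0.86 to 0.92. Tcap and Actn2 had r = 0.92, Tcap and Des 0.91, and Actn2 and Des 0.88, while Des and Nebl had -0.86. Without the atrial pair of replicate 3 the median over the 18 remaining libraries was 0.23, from -0.43 to 0.65. Tcap and Actn2 then had r = 0.65, Tcap and Des 0.57, and Actn2 and Des 0.35, and Des and Nebl had 0.10. These libraries share litters and preparation dates.

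The third comparison was of P3 with E13.5 within each genotype. Stage and dissection cannot be told apart here, since the E13.5 hearts were whole. Preparation year overlaps with stage in part: 3 of the 4 embryonic pairs were prepared in 2016, and E13.5 pair 4, like all P3 libraries, in 2018. In that pair Myoz2 was at 638 in the knockout and 702 in the wild-type heart, and Ldb3 at 3088 and 3010, below all P3 ventricles of either genotype. Pdlim3 was at 1355 in its wild-type heart, above all wild-type P3 ventricles. With 1 embryonic library per genotype in 2018, no test within that year was run. Myoz2 and Ldb3 rose in P3 ventricles in both genotypes, Pdlim5 also rose in both, Tcap rose in knockout ventricles, and Pdlim3 fell in wild-type ventricles. In knockout, limma called 4 of 10 members higher and 0 lower in ventricles, beside 1.79% and 0.954% of all genes. In wild-type it called 3 higher and 1 lower, beside 3.35% and 1.74%. The atrial comparisons share their E13.5 hearts with the ventricular ones. In atria limma called 2 higher and 0 lower in knockout, beside 1.95% and 0.855%, and 1 higher and 0 lower in wild-type, beside 3.11% and 2.39%.

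Myoz2 was at 2535 to 2834 in knockout P3 ventricles, against 514 to 792 in knockout E13.5 hearts, and at 1996 to 2379 in wild-type P3 ventricles, against 371 to 702 in wild-type E13.5 hearts. The stages were far apart in both genotypes. The log2 difference was 2.06 in knockout (SE 0.29; adjusted p 1.79e-04), a ratio of 4.18, and 1.95 in wild-type (SE 0.29; adjusted p 2.18e-04), a ratio of 3.87, both in limma. Ldb3 was at 5864 to 7317 in knockout P3 ventricles, against 2544 to 3088 in knockout E13.5 hearts, and at 6173 to 7177 in wild-type P3 ventricles, against 2042 to 3841 in wild-type E13.5 hearts. It rose by 1.17 in knockout (SE 0.22; adjusted p 0.00446) and by 1.11 in wild-type (SE 0.22; adjusted p 0.00469) in limma. The calls of Myoz2 and Ldb3 in ventricles held with each library left out in turn.

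Pdlim5 was at 5540, 3702 and 6928 in knockout P3 ventricles and at 4290, 4433 and 4544 in wild-type P3 ventricles, above the E13.5 range of 1675 to 2676 over both genotypes. It rose by 1.31 in knockout (adjusted p 0.0176) and by 1.09 in wild-type (adjusted p 0.0369) in limma. With 1 library left out in turn the adjusted p reached 0.128 in knockout (without the third ventricle). The knockout call was also lost without knockout ventricle 1 (0.0768) or knockout E13.5 heart 3 (0.0585), in limma. In wild-type the adjusted p ran from 0.0553 to 0.119, so that the wild-type call was lost with every library left out. Tcap rose in knockout ventricles by 2.06 (SE 0.55; adjusted p 0.0446 in limma); its call was lost without the filter on low values (0.0617) and held in 1 of the 7 fits with 1 library left out, where the adjusted p reached 0.160 (without the third ventricle). In wild-type ventricles Tcap differed from E13.5 with an interval of -0.18 to 2.10. The difference of the Tcap stage change between genotypes equals the difference of the knockout effects and had an interval of -0.51 to 2.72.

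Pdlim3 was at 1030, 953 and 1726 in knockout P3 ventricles, against 619 to 1022 in knockout E13.5 hearts, with overlapping ranges and an interval of -0.19 to 1.12 for the log2 difference. In wild-type it was at 544, 501 and 294 in P3 ventricles, against 1013 to 1355 in E13.5 hearts, without overlap, and it fell by 1.39 on the log2 scale (SE 0.31; adjusted p 0.0101 in limma). Without the third wild-type ventricle that difference was -1.12, with an adjusted p of 0.0897. In knockout atria Pdlim3 rose by 1.41 (adjusted p 0.0150 in limma), and without the atrial pair of replicate 3 the difference was 1.01 and the adjusted p 0.0633. That call was also lost without knockout atria 3 alone (0.114) or knockout E13.5 heart 2 (0.0525), in limma. In wild-type atria the interval was -0.09 to 1.22. The knockout minus the wild-type stage difference of Pdlim3 in ventricles equals the difference of knockout effects given above, at 1.86.

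Actn2 and Cryab had groups that did not overlap between P3 ventricles and E13.5 hearts in both genotypes but were not called. The shared spread of the fit includes the atria, where Actn2 was at 6651 and 5257 in replicate 3, against 1656 to 2331 in the others. The ventricle stage tests were not run without that atrial pair, so a missing call need not reflect spread in ventricles or E13.5 hearts. Actn2 differed by 1.04 in knockout (adjusted p 0.207) and 1.03 in wild-type (adjusted p 0.172) in limma, and Cryab by 0.82 (adjusted p 0.0942) and 0.60 (adjusted p 0.208). Synpo2l differed by 0.73 in knockout ventricles (adjusted p 0.0821 in limma). The stage ranges of members did not overlap for 7 of 10 in knockout ventricles, beside 16.8% of all genes, and for 7 of 10 in wild-type ventricles, beside 18.7%. Des and Nebl overlapped between stages in both genotypes. In atria, Myoz2 rose in knockout by 1.13 (adjusted p 0.0341 in limma) and Ldb3 rose in wild-type by 0.84 (adjusted p 0.0316). The Myoz2 call was lost without E13.5 pair 4 (adjusted p 0.0791 in limma). Leaving out knockout E13.5 heart 1 (0.0723), 2 (0.0946) or 4 (0.0710) also lost it in limma. So did leaving out knockout atria 2 (0.0579) or 3 (0.184). The Ldb3 call was lost without wild-type pup 2 (adjusted p 0.0783) and without E13.5 pair 4 (0.0832), and with 1 library left out it was lost without wild-type E13.5 heart 1 (0.102) or 4 (0.0673) and without wild-type atria 1 (0.0722) or 2 (0.0600), in limma. Without the atrial pair of replicate 3, the Myoz2 difference was 0.90 in knockout (adjusted p 0.0733) and 1.05 in wild-type (adjusted p 0.0193) in limma.

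**Figure D4:**
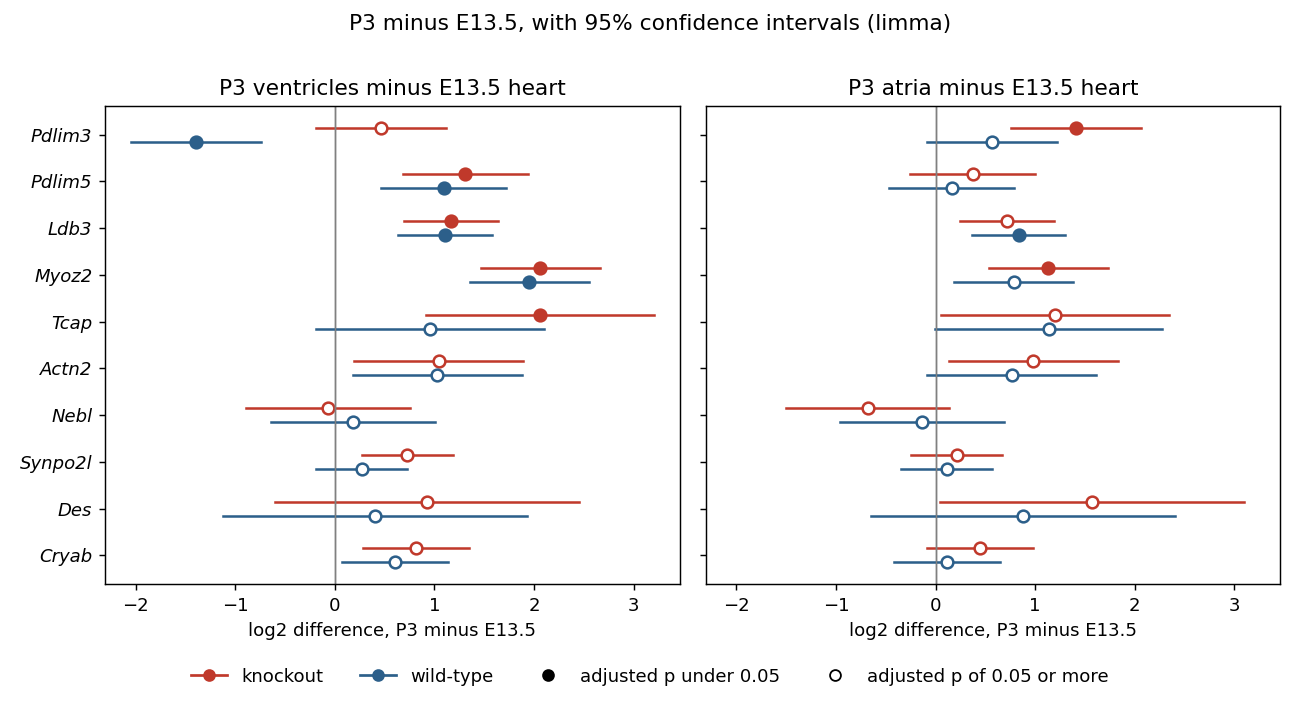
Log2 difference of P3 ventricles (left) and P3 atria (right) minus E13.5 hearts for the 10 genes, knockout in red above wild-type in blue; lines are 95% confidence intervals and filled points have an adjusted p under 0.05 in limma. Myoz2, Ldb3 and Pdlim5 are filled in ventricles of both genotypes, and Pdlim3 is filled on the negative side in wild-type ventricles.

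Cardiomyocyte markers were higher at P3 as well. They were Tnnt2, Tnni3, Tnnc1, Myh6, Actc1, Mybpc3, Ryr2, Ttn, Nkx2-5 and Pln. The mean log2 signal of the 10 markers was 1.09 higher in knockout P3 ventricles than in knockout E13.5 hearts and 1.17 higher in wild-type, and 5 and 6 of the 10 were called higher, with 0 lower. Single markers differed by -0.19 to 2.03 in knockout and by -0.01 to 2.09 in wild-type, so their mean need not follow the number of cardiomyocytes. Their summed signal was 269117 to 320470 in knockout ventricles, against 118613 to 147884 in knockout E13.5 hearts, and 281878 to 328704 in wild-type ventricles, against 130776 to 149217 in wild-type E13.5 hearts. With that mean subtracted in each library, a quantity chosen after the data had been seen, Myoz2 was still higher at P3, by 0.98 in knockout (adjusted p 0.00688) and by 0.78 in wild-type (adjusted p 0.0205) in limma. Ldb3 was then at 0.08 in knockout and -0.06 in wild-type, and Pdlim5 at 0.22 and -0.08, none of them called. Pdlim3 was at -0.62 in knockout (adjusted p 0.117) and at -2.56 in wild-type (adjusted p 5.85e-06) in limma. Nebl was called lower in knockout at -1.15 (adjusted p 0.0393) and Synpo2l in wild-type at -0.90 (adjusted p 0.00789). On that scale 0.824% of all genes were called higher and 25.2% lower in knockout ventricles, and 1.31% higher and 29.4% lower in wild-type ventricles, so the lower calls of members sit on a scale where many genes were lower.

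**Figure D5:**
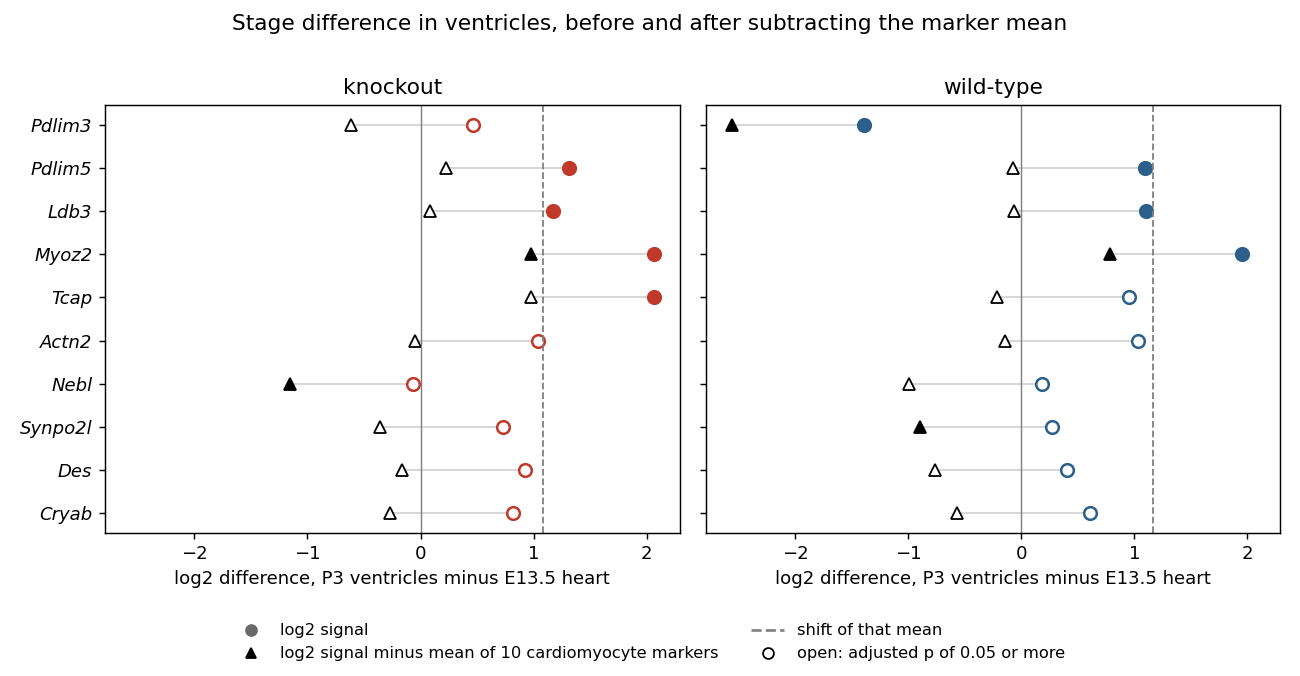
Log2 difference of P3 ventricles minus E13.5 hearts for the 10 genes in knockout (left) and wild-type (right), as log2 signal (circles) and after subtracting the mean log2 signal of 10 cardiomyocyte markers (triangles); filled symbols have an adjusted p under 0.05 in limma and the dashed line is the shift of the marker mean, 1.09 and 1.17. Ldb3 and Pdlim5 fall close to 0 after subtraction, Myoz2 stays above it, and wild-type Pdlim3 lies at -2.56.

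Genes of the further lists were also called between stages. Of 37 tested genes of other Z-disc proteins, limma called 6 higher in knockout ventricles, 7 in wild-type ventricles, 5 in knockout atria and 8 in wild-type atria, and 0 lower. Over all genes the shares called higher in those comparisons were 1.79%, 3.35%, 1.95% and 3.11%. Fhl2, a LIM protein that binds titin, was at 6052 ± 172 in knockout ventricles (SD, n = 3), against 1119 ± 153 in knockout E13.5 hearts (n = 4), and at 7310 ± 674 in wild-type ventricles, against 999 ± 328 in wild-type E13.5 hearts. It rose by 2.44 (adjusted p 7.04e-06) and 2.92 (adjusted p 4.21e-07) in limma. Cavin4, a muscle caveolae protein, rose by 5.25 in knockout and 5.68 in wild-type ventricles, Xirp2 (an actin-binding Xin repeat protein) by 7.06 and 6.00, and Cmya5 (myospryn) by 1.94 and 1.69. In atria the called genes with the smallest adjusted p were Pdlim4, a PDZ-LIM relative of the members, at 3.85 in knockout and 3.05 in wild-type, Cmya5 at 2.23 and 2.48, Ankrd1 and Cavin4 in knockout at 2.19 and 3.25, and Fhl2 and Xirp2 in wild-type at 1.91 and 5.61.

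Of 23 filament and costamere genes, 3 were called higher in knockout ventricles, 5 higher and 2 lower in wild-type ventricles, 3 higher in knockout atria and 4 higher in wild-type atria, beside the same shares of all genes called higher and 1.74% called lower in wild-type ventricles. Itgb1bp2 (melusin), a chaperone that binds beta-1 integrin in striated muscle, rose by 2.18 in knockout and 2.12 in wild-type ventricles. The sarcoglycan gene Sgcb rose by 1.74 in knockout and 1.53 in wild-type ventricles, and Ank2, an ankyrin, rose by 1.74 in wild-type ventricles. Krt19, a keratin, fell by 3.39 on the log2 scale in wild-type ventricles. In atria Itgb1bp2 rose in both genotypes, by 1.56 in knockout and 1.32 in wild-type, Synm (synemin, a partner of desmin) rose by 2.17 and Lmna (lamin A/C) by 1.13 in knockout, and Sgcb and Ank2 rose in wild-type by 1.54 and 1.37. Of 6 small heat shock genes, Hspb6 alone was called, in knockout ventricles by 2.49, in wild-type ventricles by 2.93 and in wild-type atria by 1.55.

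Among 9053 other genes of at least median level, the 5 whose log2 signal was most like the mean standardised level of the 10 members over the 20 libraries were Myom1 (r = 0.93), Itgb1bp2 (0.92), S100a1 (0.92), Fuca2 (0.92) and Cox8b (0.91). Myom1 encodes myomesin, which cross-links thick filaments at the M-band, S100a1 encodes a calcium-binding protein of cardiomyocytes, and Cox8b a subunit of cytochrome c oxidase. After group means were subtracted, r was 0.82 for Myom1, 0.77 for S100a1, 0.77 for Cox8b, 0.51 for Itgb1bp2 and 0.34 for Fuca2. These values describe 20 libraries that share stages, tissues and litters.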

How the data were processed

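RNA was extracted with the RNeasy Micro kit and libraries were made by SMART-Seq2, per the labels' protocols, a method that copies polyadenylated RNA and does not mark strand. Per the submitters' processing notes, the tools included STAR 2.5.1, bcl2fastq 2.2 and DESeq2, and the build was mm10, with no role or order given. No source used here gives the counting tool or the annotation release. The authors deposited 1 table of normalized signal per gene (26440 genes, 20 libraries) on a linear scale, with the scaling not stated. Values looked like counts divided by 1 factor per library, but among values of at most 100 estimated counts only 45.1 to 64.6% came out as whole multiples of that factor within 0.001 reads, so no count test was run.

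Log2(signal + 1) was fitted in R 4.3.3 with limma 3.58.1 (variance trend, 18125 genes with a signal of at least 10 in at least 3 libraries). Tests were two-sided with Benjamini-Hochberg adjustment over all genes, and genes under 0.05 were called. All log2 differences carry the added 1, so changes of weakly expressed genes come out too small. One fit held the 6 groups (14 residual and 6.68 prior degrees of freedom), and chambers were compared on the ventricle minus atrium difference of each pup (4 residual and 4.59 prior). In the fit of 6 groups each gene has a spread shared by all groups, so outlying libraries of any group widen its intervals in every group. Some of the fits were tested on simulated data with independent libraries. That check held no shared litter, shared pup or outlying pair, so it does not cover them. Intervals are at 95% from the same fits, and estimated depths cover counting error only, because PCR copies without molecular identifiers do not count separate molecules.

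Per the labels, libraries of the same replicate number share a litter and a day of preparation, which pairs a knockout with a wild-type library, except that E13.5 replicates 2 and 3 come from 1 litter, so that the pairing within it is arbitrary. The correlation of same-numbered libraries, taken on deviations from their group means, was 0.212 to 0.638 in atria, 0.0200 to 0.0658 in ventricles and -0.0159 to 0.0159 at E13.5. The main genotype fit has no block, since no source says that the authors used one. All 10 members were named throughout, and of each further list the called genes with the 4 smallest adjusted p, except 1 gene that is counted but not reported here by name. The members, lists and tests were chosen with earlier results of these data known. Alternatives were another pseudocount, no filter, TMM rescaling, the replicate block, a litter block, separate fits per tissue, and leaving out libraries.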

Additional observations from a re-analysis of the deposited data

Results flagged for a closer look

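Synpo2l in wild-type E13.5 hearts had 1 library at a signal of 1014, far below the other 3 libraries of that group, which lay between 1454 and 1540. This gap was the only one, among 20 combinations of a gene and a group of 4 libraries, to pass Dixon's 95% critical value, and about 1 in 20 would do so by chance.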

How the results depend on the processing

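The count of members called was 0 in each of the 3 genotype comparisons and the 3 differences of effects under every alternative run. The replicate block changed none of the genotype counts or calls; with it the adjusted p of Pdlim3 in ventricles was 0.189. With the litter as the block, an alternative chosen after seeing the data, it was 0.141 and 0 members were called. For chambers, the fit without pairing by pup called 1 member in wild-type pups (Pdlim3), against 0 within pups. Among the stage counts, knockout atria had 2 called members and wild-type atria 1; without wild-type pup 2 the wild-type count was 0, without E13.5 pair 4 the counts were 1 in knockout and 0 in wild-type, and without the atrial pair of replicate 3, an alternative chosen after seeing the data, they were 0 in knockout and 2 in wild-type. With 1 library left out in turn, counts ran from 0 to 2 in knockout atria, 0 to 1 in wild-type atria, 2 to 4 in knockout ventricles and 2 to 3 in wild-type ventricles; fewer samples enter those fits. A lone library never made up a group.

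Small knockout differences changed sign, none of them called, and the cause was not tested. Nebl in ventricles was 0.00985 with TMM rescaling and 0.0125 without wild-type pup 2. Without that pup Des in atria was -0.19 and Cryab in ventricles -0.00756. Without E13.5 pair 4, Pdlim5 was -0.0398 and Synpo2l 0.0275 in E13.5 hearts, and without the atrial pair of replicate 3 Cryab in atria was -0.16. With 1 library left out, the ranges in E13.5 hearts were -0.0919 to 0.23 for Actn2, -0.30 to 0.00367 for Ldb3, -0.0241 to 0.28 for Myoz2, -0.0944 to 0.12 for Pdlim5 and -0.19 to 0.0136 for Synpo2l. In atria they were -0.31 to 0.79 for Actn2, -0.0870 to 0.40 for Cryab, -0.71 to 1.56 for Des, -0.86 to 0.26 for Nebl, -0.16 to 0.50 for Pdlim5, -0.0407 to 0.16 for Synpo2l and -1.32 to 0.21 for Tcap. In ventricles they were -0.12 to 0.29 for Actn2, -0.0638 to 0.22 for Cryab, -0.15 to 0.0171 for Ldb3 and -0.0937 to 0.0492 for Nebl. Pdlim3 in ventricles stayed between 1.19 and 1.63 over the 13 alternatives. Members had a signal of 141 or more in every library, and the 3 or 4 animals per group limit the precision.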
